A study of Mus musculus with 6 samples.

Results

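The genes described here are 48 genes of the cell cycle and of DNA replication, taken by symbol from the authors' deposited table of a comparison between mouse cumulus granulosa cells labelled Atg5-KD and cells labelled control. All 48 were found among the 24982 genes of that table, and all 48 had an adjusted p there, as did 14835 genes in all. They were grouped by role into 11 genes of the G1 phase (cyclins, their kinases, inhibitors and E2f1), 14 genes of replication and 23 genes of mitosis. The grouping used no measured value. Each group had 3 libraries of poly(A) RNA from cells of Kun-Ming mice, an outbred stock, and the labels name short hairpin RNAs against Atg5, a gene needed to form autophagosomes, as the treatment. What the control cells received, the age of the mice, the number of hairpins and whether the replicates were separate cultures are not given in the sources used here. The p-values therefore speak only of the variation among these 6 libraries, and that variation may be technical.

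A cell enters the cycle when D-type cyclins with Cdk4 or Cdk6, and then E-type cyclins with Cdk2, phosphorylate the retinoblastoma proteins and release E2F factors, while inhibitors such as p27 hold these kinases back. E2F factors switch on the genes that license and copy DNA, and the mitotic genes follow later under B-Myb and Foxm1. In the ovary, follicle-stimulating hormone drives granulosa cells to divide through cyclin D2, and mice that lack Ccnd2 have small follicles with few granulosa cells. After the ovulatory surge these cells leave the cycle as they turn into luteal cells, with p27 among the inhibitors that take part.

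The deposited table gives 1 base mean per gene over all 6 libraries, in read counts divided by size factors, with a log2 fold change, its standard error (SE) and a Wald test. Values of single libraries were not analysed here, so group means in the text are estimates made from the base mean and the fold change. A gene was called higher or lower where the adjusted p per the authors' deposited table was under 0.05. Estimated depth was 16.5e6 to 17.9e6 counted reads in the control libraries and 11.3e6 to 12.9e6 in the libraries labelled Atg5-KD. The ribosomal RNA locus Rn45s took an estimated 1.17% of the reads in control and 17.9% in Atg5-KD. Scaling to all reads in place of the authors' size factors shifts every log2 fold change by -0.30, and changes below are given relative to the authors' scaling. Atg5 itself stood at -0.06 ± 0.14 (SE) per the authors' deposited table (adjusted p = 0.822), so its transcript gave no check of the labels. The direction Atg5-KD over control is not written in the columns and was taken from the name of the table, which puts the knockdown before the control. If it ran the other way, every higher and lower call, both depth ranges, both Rn45s shares and all estimated group means would change places between the groups.

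The label of the cells was checked against 10 granulosa markers. Inha and Inhba, which encode inhibin and activin subunits, had base means of 30063 and 24381, and Foxl2, a transcription factor of granulosa identity, had 1816. Cyp19a1, the aromatase, and Amh were nearly absent, with base means of 2.34 and 6.07. Of the 9 tested granulosa markers Inhba and Nr5a2 were higher and Foxl2, Hsd17b1 and Serpine2 lower, that is 2 and 3 per the authors' deposited table. Oocyte markers were near 0, with a highest base mean of 19.8 (Gdf9, followed by Zp2) among 12, Figla at 0, and summed estimated levels of 77.0 in control and 90.1 in Atg5-KD. None of the 6 tested oocyte markers was called by the deposited Wald test, and 0 passed an unadjusted p under 0.05. Leukocyte markers were lower in 9 of 14 cases per the authors' deposited table, led by Laptm5, C1qc, C1qa and Lyz2, with a summed estimated level of 2330 in control and 607 in Atg5-KD and no marker at 0. Markers of fibroblasts and smooth muscle were lower in 12 of 13 cases in that table, led by Actg2, Acta2, Tagln and Col1a1, with summed estimated levels of 19765 and 9896, again with none at 0. Endothelial markers were called in 0 of 8 cases by the deposited Wald test, 1 being lower at an unadjusted p under 0.05, with summed levels of 296 and 255 and Egfl7 and Eng the most abundant. The part of these cell types in the results on cell cycle genes was not tested.

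Per the authors' deposited table, 2 of the 48 were higher in Atg5-KD, Ccnd2 and Cdkn1b, and 7 were lower, Cdk4, Mcm6, Mcm7, Aurkb, Cdc20, Plk1 and Ube2c. The largest of these changes was that of Aurkb, 1.45-fold. Over all tested genes 20.9% were called, 10.4% higher and 10.5% lower, against 18.8% of the 48 genes, 4.17% higher and 14.6% lower. Among the 10375 genes with a base mean at least that of the least abundant of the 48, the shares were 25.5% called, 12.5% higher and 13% lower. So the 48 genes were called about as often as genes at large. Their median log2 fold change was -0.15, against 0.00 over all tested genes, and 37 of 48 had a negative value, 77.1% against 49.6% of all tested genes. In RNA of whole cultures, fewer dividing cells, less of these transcripts per dividing cell and a different mix of cell types cannot be told apart. Of the 39 genes that were not called, 32 had a 95% interval that lay within a 1.5-fold change in either direction.

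**Figure D1:**
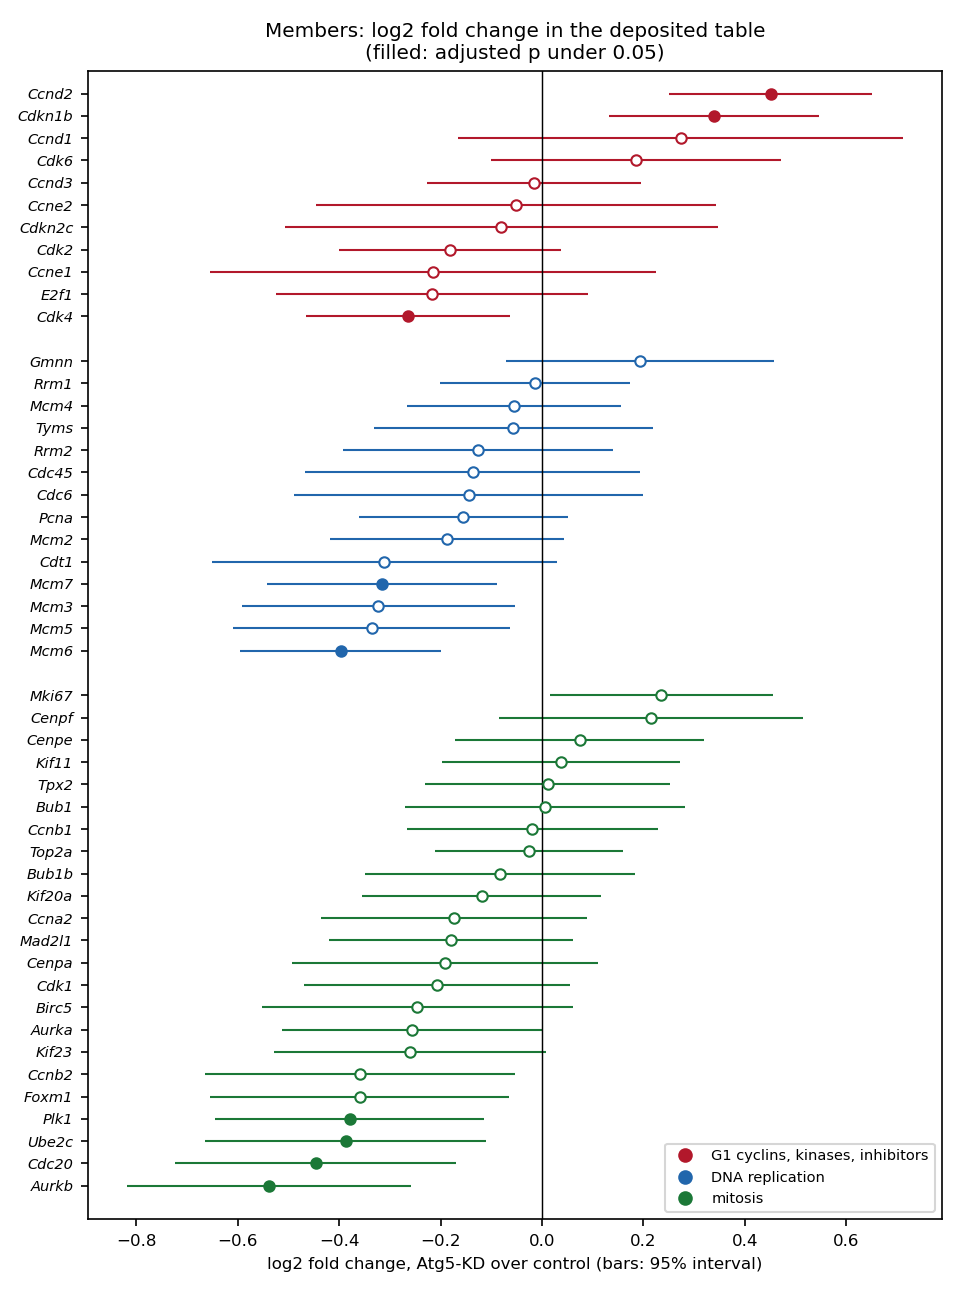
Log2 fold change (Atg5-KD over control, horizontal axis) of each of the 48 genes per the authors' deposited table, with its 95% interval from the standard error, ordered within each role group; filled points have an adjusted p under 0.05. Ccnd2 at 0.45 and Aurkb at -0.54 are the extremes, and 13 of 14 replication genes lie below 0 on the authors' scaling.

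**Figure D2:**
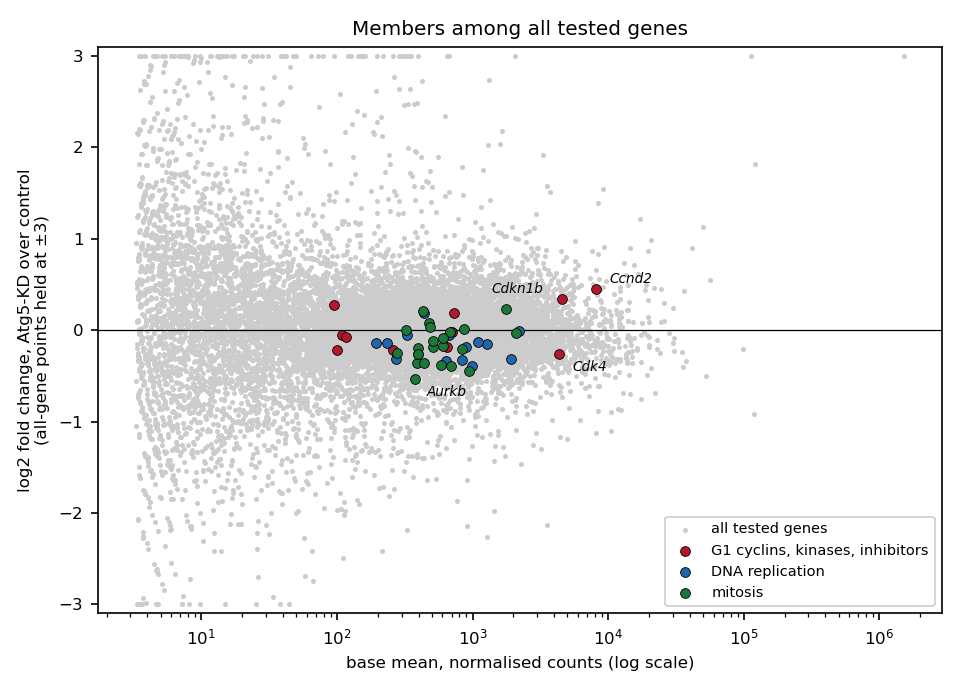
Log2 fold change against base mean (log axis) for the 14835 tested genes (grey, held at 3 in either direction) and the 48 cell cycle genes (coloured by role). The 48 genes lie between -0.54 and 0.45 and have base means from 95.1 to 8197.

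Of the 11 G1 genes 2 were higher, 1 was lower and 8 were not called, with a median log2 fold change of -0.05. That is 18.2% higher and 9.09% lower, beside 10.4% and 10.5% of all tested genes. Among genes as abundant as the 48 the shares were 12.5% and 13%. On GRCm38, in GENCODE M21, Ccnd2 lies on chromosome 6 from 127125162 to 127152193 (minus strand), Cdkn1b lies on chromosome 6 from 134920401 to 134925513 (plus strand) and Cdk4 lies on chromosome 10 from 127063534 to 127067920 (plus strand). Ccnd2, the cyclin through which granulosa cells answer follicle-stimulating hormone, had estimated means of 6926 normalised counts in control and 9468 in Atg5-KD. Its log2 fold change per the authors' deposited table was 0.45 ± 0.10 (SE), a 1.37-fold rise (Wald adjusted p = 0.000156). Cdkn1b, which encodes the inhibitor p27, went from an estimated 4045 to 5118 normalised counts. It rose by 0.34 ± 0.11 (SE) on the log2 scale per the authors' deposited table (adjusted p = 0.00939). A cyclin that promotes the cycle and an inhibitor that stops it were thus the only 2 of the 48 that were called higher. Cdk4, the kinase partner of D cyclins, went from an estimated 4770 to 3973 normalised counts and fell by 0.26 ± 0.10 (SE) per the authors' deposited table (adjusted p = 0.0484). Of the 9 calls this was the one closest to the threshold. The gene on the other side of the threshold, Mcm5, had an adjusted p of 0.0699 per the authors' deposited table.

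GENCODE M21 places 31.2% of the exonic bases of Cdk4 under exons of Tspan31 on the opposite strand. The sources used here do not say whether the library kit kept the strand, so reads of both genes may not be separable, and the effect on Cdk4 was not tested. Tspan31 stood at -0.21 ± 0.09 (SE) per the authors' deposited table (adjusted p = 0.0922). The Cdk4 call was lost when every gene was centred on the median gene, which moves values by less than 0.01, and when no filter on low means was used.

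The other 8 G1 genes did not pass the test. Cdk6, the second kinase of D cyclins, stood at 0.18 ± 0.15 (SE) per the authors' deposited table (adjusted p = 0.409). Cdk2, the kinase of E and A cyclins, stood at -0.18 ± 0.11 (SE) in the deposited table (adjusted p = 0.262), and E2f1, the activator of replication genes, at -0.22 ± 0.16 (SE) (adjusted p = 0.358). Ccnd3 stood at -0.02 ± 0.11 (SE) in that table with a 95% interval from -0.23 to 0.19. With the GC and length trend removed it stood at 0.21 ± 0.11 (SE) beside 0.33 ± 0.10 (SE) for Ccnd2, and the difference between the cyclins was not tested. For Ccnd1, the interval from -0.16 to 0.71 covers the value of Ccnd2, at a base mean of 95.1. The remaining 3, Ccne1, Ccne2 and Cdkn2c, an inhibitor of Cdk4 and Cdk6, lay between -0.21 and -0.05 with base means of 99.8 to 116 per the authors' deposited table.

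Compared per kilobase of the longest coding transcript, the D cyclins differed widely in level. Ccnd2 had an estimated 1094 normalised counts per kb in control, Ccnd3 335 and Ccnd1 23.0, the lowest of all 48 genes. Cdk4 had the highest level per kb of the 48, at 2324, followed by Ccnd2, by Pcna at 891 and by Cdkn1b at 889. In Atg5-KD the estimates were 1935 for Cdk4, 1496 for Ccnd2, 1124 for Cdkn1b and 800.3 for Pcna, so the order of Pcna and Cdkn1b differed between the groups. The D cyclins kept their order, with 332 for Ccnd3 and 27.8 for Ccnd1. These levels rest on 1 transcript per gene and carry no error from replicates. In Ccnd1 21.9% of the exonic bases lie under exons of LTO1 on the opposite strand, and in Ccnd3 14.8% under exons of Bysl.

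Genes that license and copy DNA were lower or did not pass the test. On GRCm38 Mcm6 lies on chromosome 1 from 128331590 to 128359664 (minus strand) and Mcm7 lies on chromosome 5 from 138164583 to 138172422 (minus strand). Per the authors' deposited table, 2 of 14 were lower and 0 higher, with a median log2 fold change of -0.15. The shares over all tested genes were 10.5% lower and 10.4% higher, so 14.3% lower is near the background. At an unadjusted p under 0.05, 15.9% of all tested genes were lower and 15.6% higher in the deposited Wald test. Of the replication genes 4 were lower at that threshold and 0 higher. All 4 encode subunits of the Mcm2-7 helicase, the ring of 6 proteins that is loaded on origins in G1 and unwinds DNA in S phase. Mcm6 went from an estimated 1123 to 853 normalised counts and fell by 0.40 ± 0.10 (SE) on the log2 scale per the authors' deposited table (adjusted p = 0.000972). Mcm7 went from an estimated 2131 to 1712, a fall of 0.32 ± 0.12 (SE) in the deposited table (adjusted p = 0.0341), and 13.0% of its exonic bases lie under exons of Ap4m1 and Cops6 on the opposite strand. Mcm5 stood at -0.34 ± 0.14 (SE) per the authors' deposited table. Mcm3, named after its value was seen, stood at -0.32 ± 0.14 (SE) in the deposited table (adjusted p = 0.0790). Mcm2 at -0.19 ± 0.12 (SE) and Mcm4 at -0.06 ± 0.11 (SE) complete the ring in that table. The subunits thus had the same sign, with values from -0.40 to -0.06, but 13 of the 14 replication genes shared that sign. Whether the subunits differ from each other was not tested.

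Outside the helicase no replication gene passed the test. Rrm1 and Rrm2, the subunits of ribonucleotide reductase, stood at -0.01 ± 0.10 (SE) and -0.13 ± 0.14 (SE) per the authors' deposited table. For Rrm1, at a base mean of 2201, the 95% interval ran from -0.20 to 0.17. Pcna, the sliding clamp of DNA polymerases, stood at -0.15 ± 0.10 (SE) per the authors' deposited table (adjusted p = 0.321). Gmnn, which encodes geminin, the inhibitor of the licensing factor Cdt1, was the one replication gene with a positive value, 0.19 ± 0.13 (SE) in the deposited table (adjusted p = 0.340). Cdt1 itself stood at -0.31 ± 0.17 (SE) in the deposited table (adjusted p = 0.206), and the choice to name both followed their values. The remaining 3, Cdc6, Cdc45 and Tyms, lay between -0.14 and -0.06 per the authors' deposited table.

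Promoters of replication genes are known for E2F sites. The promoters of both genes that were called lower are shown for this reason, from 250 bases before to 50 bases after the start, from RefSeq on GRCm38.p6, on the minus strand at chr1:128359656-128359955 for Mcm6 and chr5:138171834-138172133 for Mcm7, which has a second listed start. Capitals mark the letters TTCGCGC, the letters TTGGCGC, the letters TTCCCGC or the letters TTGCCGC on either strand, and overlapping matches run together.
Mcm6: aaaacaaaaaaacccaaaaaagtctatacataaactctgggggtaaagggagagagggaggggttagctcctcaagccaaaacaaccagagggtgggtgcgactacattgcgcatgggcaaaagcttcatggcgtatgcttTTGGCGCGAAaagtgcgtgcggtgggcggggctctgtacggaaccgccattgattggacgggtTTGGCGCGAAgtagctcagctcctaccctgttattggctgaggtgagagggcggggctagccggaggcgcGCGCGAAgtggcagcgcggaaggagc
Mcm7: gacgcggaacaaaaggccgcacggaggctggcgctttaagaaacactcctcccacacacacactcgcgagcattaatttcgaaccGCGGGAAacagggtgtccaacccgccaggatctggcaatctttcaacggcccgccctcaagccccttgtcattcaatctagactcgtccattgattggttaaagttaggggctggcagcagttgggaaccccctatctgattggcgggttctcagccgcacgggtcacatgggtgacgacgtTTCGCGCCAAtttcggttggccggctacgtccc
The Mcm6 window holds 5 such matches and this Mcm7 window 3. The window of the second listed start of Mcm7, chr5:138171217-138171516, is not shown and holds 1. RefSeq promoters were matched for 38 of the 48 genes. An E2F match was found in 8 of 12 replication genes, 2 of 8 G1 genes and 3 of 18 mitotic genes, and in 9.57% of all 32851 promoters of the same length. A gene was counted where any of its listed promoters held a match, so the shares of genes and of promoters are unlike measures. Mcm3 and Mcm5, which missed the threshold, hold matches as well, and a match is no measure of binding.

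Of 23 mitotic genes 4 were lower per the authors' deposited table, 0 were higher and 19 were not called, with a median log2 fold change of -0.18. The share of 17.4% lower stands beside 10.5% of all tested genes and 13% of those as abundant as the 48. Aurkb, the kinase of the chromosomal passenger complex, went from an estimated 443 to 305 normalised counts, a fall of 0.54 ± 0.14 (SE) on the log2 scale per the authors' deposited table (adjusted p = 0.00180). On GRCm38 Aurkb lies on chromosome 11 from 69045647 to 69051664 (plus strand), Cdc20 lies on chromosome 4 from 118432901 to 118437352 (minus strand), Plk1 lies on chromosome 7 from 122159439 to 122169873 (plus strand) and Ube2c lies on chromosome 2 from 164769898 to 164778822 (plus strand). Cdc20 and Ube2c serve the anaphase-promoting complex, Cdc20 as its activator and Ube2c as its ubiquitin-conjugating enzyme. Cdc20 went from an estimated 1087 to 798 and fell by 0.45 ± 0.14 (SE) in the deposited table (adjusted p = 0.0112). Ube2c went from 787 to 602 and fell by 0.39 ± 0.14 (SE) per the authors' deposited table (adjusted p = 0.0332). For Plk1, a kinase of mitotic entry and spindle assembly, estimates were 660 and 507, a fall of 0.38 ± 0.13 (SE) in the deposited table (adjusted p = 0.0274). In Ube2c 22.8% of the exonic bases lie under exons of Tnnc2 on the opposite strand, which had a base mean of 1.67.

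Widely used marks of dividing cells did not pass the test. Top2a, the topoisomerase that untangles replicated DNA, stood at -0.03 ± 0.09 (SE) per the authors' deposited table (adjusted p = 0.894), with a 95% interval from -0.21 to 0.16 at a base mean of 2084. Mki67, which encodes the proliferation antigen Ki-67, had estimated means of 1632 in control and 1922 in Atg5-KD. Its value was 0.24 ± 0.11 (SE) in the deposited table (adjusted p = 0.125), the only mitotic gene with a positive value at an unadjusted p under 0.05. With the GC and length trend removed Mki67 stood at 0.0078 ± 0.11 (SE). Cdk1, the mitotic kinase, stood at -0.21 ± 0.13 (SE) and its cyclin Ccnb1, named after its value was seen, at -0.02 ± 0.13 (SE) per the authors' deposited table. Tpx2, which targets Aurora A to the spindle, stood at 0.01 ± 0.12 (SE) in that table. Foxm1, the transcription factor of mitotic genes, and Ccnb2 had values of -0.36 ± 0.15 (SE) and -0.36 ± 0.16 (SE) with adjusted p of 0.0720 and 0.0865 per the authors' deposited table, and their values led to their being named here.

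The other 12 mitotic genes had values from -0.26 to 0.22 per the authors' deposited table. The spindle checkpoint genes Bub1, Bub1b and Mad2l1 stood at 0.01, -0.08 and -0.18 there. The kinesins Kif11, Kif20a and Kif23 had 0.04, -0.12 and -0.26, and the centromere genes Cenpa, Cenpe and Cenpf -0.19, 0.07 and 0.22 in that table. Aurka, the centrosomal Aurora kinase, was at -0.26, Birc5, the survivin subunit of the passenger complex, at -0.25 and Ccna2, the cyclin of S phase and G2, at -0.17 in the deposited table. Their standard errors ran from 0.12 to 0.16. In Kif20a 31.8% of the exonic bases lie under exons of Cdc23 on the opposite strand, and in Ccna2 10.4% under exons of Exosc9. The effect on these values was not tested.

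Mitotic promoters often carry a cell cycle genes homology region (CHR), a short element through which MuvB complexes hold genes down in resting cells, together with CCAAT boxes bound by NF-Y. The promoters of the 3 called mitotic genes with a matched RefSeq entry are shown with the CHR letters TTTGAA on either strand in capitals. They lie on GRCm38.p6 at chr4:118437294-118437593 on the minus strand for Cdc20, and on the plus strand at chr7:122159185-122159484 for Plk1 and chr2:164769679-164769978 for Ube2c.
Cdc20: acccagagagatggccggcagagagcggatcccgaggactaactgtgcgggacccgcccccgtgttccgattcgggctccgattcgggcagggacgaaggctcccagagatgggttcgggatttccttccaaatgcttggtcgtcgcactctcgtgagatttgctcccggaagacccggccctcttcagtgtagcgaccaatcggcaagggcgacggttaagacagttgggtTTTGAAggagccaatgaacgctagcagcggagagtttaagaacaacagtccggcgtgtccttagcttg
Plk1: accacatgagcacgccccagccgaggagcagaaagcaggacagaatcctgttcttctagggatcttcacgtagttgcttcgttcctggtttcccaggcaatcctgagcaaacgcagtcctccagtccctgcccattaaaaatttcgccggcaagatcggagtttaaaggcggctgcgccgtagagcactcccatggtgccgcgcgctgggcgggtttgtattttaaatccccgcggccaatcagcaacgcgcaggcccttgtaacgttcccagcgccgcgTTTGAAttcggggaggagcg
Ube2c: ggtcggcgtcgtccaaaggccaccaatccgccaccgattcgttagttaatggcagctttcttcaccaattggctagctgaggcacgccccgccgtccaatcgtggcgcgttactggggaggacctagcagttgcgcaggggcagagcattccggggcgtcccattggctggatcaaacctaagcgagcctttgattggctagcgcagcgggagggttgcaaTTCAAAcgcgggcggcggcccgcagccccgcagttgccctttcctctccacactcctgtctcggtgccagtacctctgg
The match starts 18 bases before the listed start in Cdc20, 29 bases before it in Ube2c on the opposite strand, and 30 bases after it in Plk1. TTTGAA was found in 13 of 18 mitotic genes with a promoter entry, in 2 of 12 replication genes, in 0 of 8 G1 genes and in 17.9% of all 32851 promoters. CCAAT on either strand was found in 16 of 18 mitotic genes and in 37.4% of all promoters. Genes were again counted where any listed promoter held the letters, unlike the shares of single promoters. Mitotic genes that were not called held TTTGAA in 10 of 15 cases, Top2a and Mki67 among them, so the letters were found on both sides of the threshold.

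Further genes of the cycle were read from lists of other genes with the same roles. Of 153 such genes 5 were higher and 11 lower per the authors' deposited table, 3.27% and 7.19%, both below the shares of 10.4% and 10.5% over all tested genes, and their median was -0.04. In the list of 32 G1 regulators 2 were higher and 7 lower, and the lower ones included Cks1b, a subunit of cyclin-dependent kinases, at -0.49 ± 0.13 (SE) per the authors' deposited table (adjusted p = 0.00115). Mycn stood at -1.04 ± 0.28 (SE) in the deposited table (adjusted p = 0.00173) with a low base mean of 66.6. Lower too were the repressors E2f7 at -0.70 ± 0.21 (SE) and E2f4 at -0.42 ± 0.12 (SE) per the authors' deposited table. The remaining lower ones were the inhibitor gene Cdkn2b at -0.58 ± 0.20 (SE), Lin37 at -0.39 ± 0.15 (SE) and Myc at -0.25 ± 0.09 (SE) in that table. The 2 higher ones were Cdkn1a, which encodes the inhibitor p21, at 0.36 ± 0.11 (SE), and Ccng1, a p53 target, at 0.48 ± 0.09 (SE) in the deposited table. Among 54 further replication genes 2 were lower and 2 higher per the authors' deposited table. The lower ones were Dut, which removes dUTP, at -0.51 ± 0.14 (SE) and the polymerase delta subunit Pold2 at -0.41 ± 0.14 (SE), and the higher ones the origin recognition subunits Orc4 at 0.43 ± 0.11 (SE) and Orc3 at 0.35 ± 0.11 (SE) in that table.

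Among 67 further mitotic genes 2 were lower and 1 was higher per the authors' deposited table. Tacc3, a spindle protein, stood at -0.38 ± 0.13 (SE) and Ube2s, which works with Ube2c on the anaphase-promoting complex, at -0.34 ± 0.13 (SE) in the deposited table. Cenpm, a kinetochore protein, went the other way, from an estimated 265 to 586 normalised counts. Its log2 fold change per the authors' deposited table was 1.15 ± 0.17 (SE), a 2.21-fold rise (adjusted p = 1.08e-09), larger in size than that of any of the 48 genes. Cenpm lies on chromosome 15 from 82233779 to 82244748 of GRCm38 on the minus strand, and none of its exonic bases is shared with another gene in GENCODE M21. Targets of p53, to which Cdkn1a and Ccng1 also belong, were higher in 7 of 21 cases and lower in 3 per the authors' deposited table, 33.3% and 14.3% beside 10.4% and 10.5% of all tested genes. The list as a whole was not raised in that table, with a median log2 fold change of -0.05 and negative values in 12 of the 21. Scaled to all reads, 3 of the 21 were higher and 9 lower, beside 3.6% and 38.7% of all tested genes on that scale. On the authors' scaling the rises were led by Trp53inp1 at 0.62 ± 0.09 (SE), the antiproliferative gene Btg2 at 0.73 ± 0.13 (SE) and Eda2r at 0.60 ± 0.11 (SE) in the deposited table. Gadd45a at -0.42 ± 0.14 (SE), Plk2 at -0.38 ± 0.14 (SE) and Perp at -0.59 ± 0.22 (SE) were lower per the authors' deposited table.

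The log2 fold change of a gene varied with the base composition of its transcript. Among mitotic and G1 genes, and in bins of all tested genes, it also varied with transcript length. Of the 7 genes called lower, 6 lay among the 24 with the higher GC content, above 48.1%, and 6 among the 24 with transcripts of 3.25 kb or less. Ccnd2 and Cdkn1b, both called higher, lay among the GC-poorer 24 and the longer 24. Across the 23 mitotic genes the log2 fold change per the authors' deposited table had a Pearson correlation of -0.73 with GC content (Spearman -0.74) and of 0.75 with log10 length (Spearman 0.71). In the 11 G1 genes the correlation with log10 length was also 0.75 (Spearman 0.77), and that with GC content was -0.43 (Spearman -0.52). Across the 153 other cell cycle genes the correlation was -0.47 with GC content and 0.31 with log10 length (Spearman -0.55 and 0.37). Across the 14 replication genes the correlation was -0.45 with GC content (Spearman -0.49) and ran the other way with log10 length, at -0.44 (Spearman -0.19). All points come from the same 6 libraries, and genes are not independent replicates. The median of the 12 mitotic genes with the shorter transcripts was -0.26 and that of the 11 longer ones -0.03. Aurkb, Cdc20, Plk1 and Ube2c have transcripts of 1.79 to 2.20 kb with a GC content of 52.5% to 56.0%, and Mki67 one of 10.1 kb with 46.6%. Over 14680 tested genes the correlation was -0.24 with GC content and 0.01 with log10 length (Spearman -0.37 and 0.14). With genes split into 10 bins by GC content the median was 0.24 in the GC-poorest and -0.23 in the GC-richest. Split into 10 bins by length, the median was -0.03 in the shortest, -0.08 in the next and 0.20 in the longest.

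**Figure D3:**
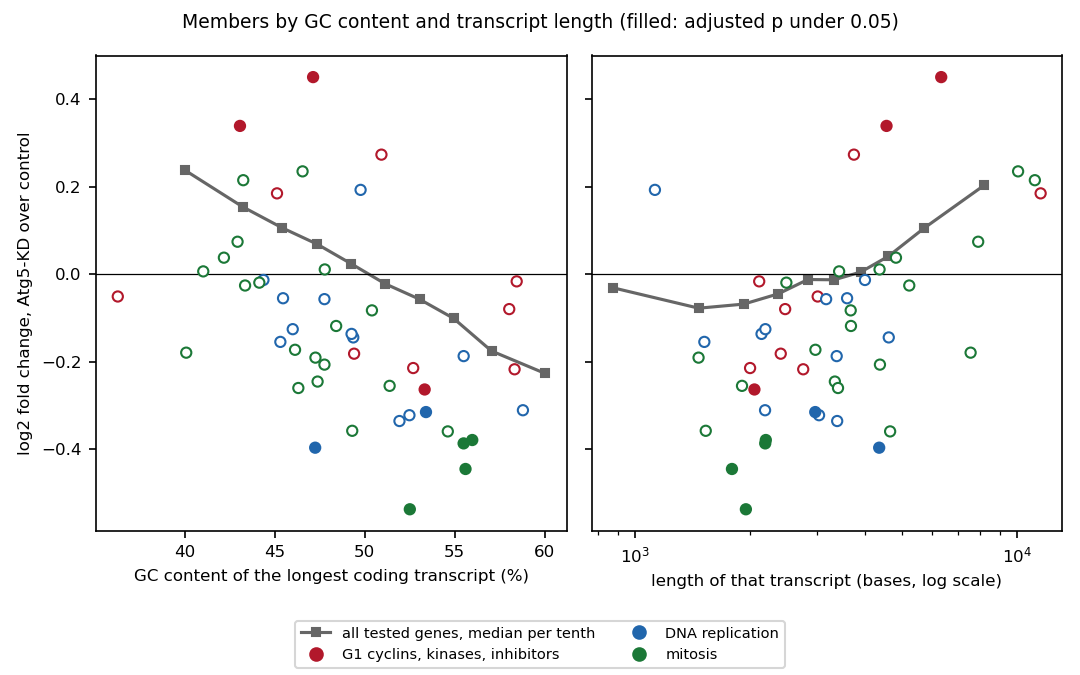
Log2 fold change of the 48 genes against GC content (left) and length on a log axis (right) of the longest coding transcript, coloured by role and filled where the adjusted p is under 0.05; grey squares are medians of all tested genes in 10 bins. Lower values go with higher GC content, and the called mitotic genes sit at short lengths.

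After removal of the trend in GC content and length over all genes, 1 of the 48 was higher and 3 were lower, against 6.37% and 7.11% of all genes (13.5% in either direction), and 3 of them were called before. Ccnd2 kept its rise at 0.33 (adjusted p = 0.0132), and Mcm6 and Aurkb kept their falls at -0.45 and -0.45 (adjusted p = 0.000152 and 0.0170, Benjamini-Hochberg on recomputed Wald statistics). Mad2l1, whose longest transcript has 7.56 kb, then stood at -0.49 (adjusted p = 0.00109). The calls of Cdkn1b, Cdk4, Mcm7, Cdc20, Plk1 and Ube2c ended, with adjusted p from 0.1995 for Cdc20 to 0.379 for Plk1. The median of the mitotic genes was then -0.21.

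The reads of all genes include Rn45s, at an estimated 1.17% of them in control and 17.9% in Atg5-KD. Scaled to all reads, every log2 fold change moved by the same -0.30, whatever the gene. Then 35 of the 48 were lower and 0 higher, against 38.7% and 3.6% of all tested genes (42.3% in either direction), and the median of all tested genes was -0.29. Ccnd2 stood at 0.15 (adjusted p = 0.230) and Cdkn1b at 0.04 (adjusted p = 0.791) on that scale. Replication genes were lower in 13 of 14 cases and mitotic genes in 18 of 23, with medians of -0.45 and -0.48. The difference of each group's median from that of all genes is the same on both scales.

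Other call rules were read against their own backgrounds. Centred on the median gene, 2 of the 48 were higher and 6 lower, beside 10.7% and 10.2% of all tested genes. With no filter on low means the 48 gave 2 and 6, beside 7.57% and 7.54% (15.1% in either direction), and among genes with a base mean of at least 50 they gave 2 and 7, beside 12.6% and 13.3% (25.9%). Against a null of a 1.2-fold change 0 of the 48 were called by the recomputed Wald test, beside 2.77% higher and 2.47% lower (5.24%). At an adjusted p under 0.01 Ccnd2 and Cdkn1b were higher and Mcm6 and Aurkb lower, beside 6.92% and 6.94% (13.9%). At an unadjusted p under 0.05 the deposited Wald test gave 3 higher and 11 lower, beside 15.6% and 15.9% (31.5%). With the trend fitted on the first listed transcript of each gene, 1 was higher and 3 were lower, beside 6.5% and 7.26% (13.8%).

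**Figure D4:**
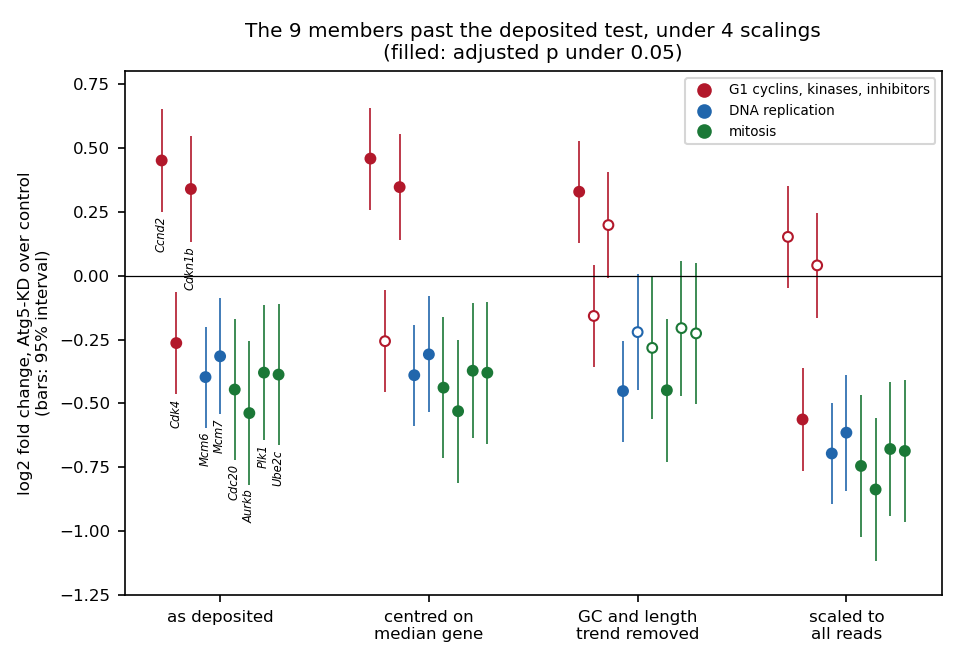
Log2 fold change (vertical axis, bars 95% intervals) of the 9 genes called per the authors' deposited table, as deposited, centred on the median gene, without the GC and length trend, and scaled to all reads; filled points have an adjusted p under 0.05. Mcm6 and Aurkb stay below 0 and called in the 4 panels, while Ccnd2 and Cdkn1b lie near 0 when scaled to all reads.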

How the data were processed

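RNA of 6 libraries, 3 per group, was analysed from the authors' comparison. The tools DESeq2 1.30.1, StringTie 2.1.4, featureCounts 1.6.2 and STAR and the build mm10 are named, without role or order, per the submitters' processing notes. Per the file headers, the base mean is a signal value deposited by the authors, the mean of counts divided by size factors. The log2 fold change and its standard error on the log2 scale, the Wald statistic, a score, and the p-value and adjusted p-value were also deposited by the authors. The statistic, p-value and Benjamini-Hochberg adjustment were recomputed, and 0 genes differed at a tolerance of 1e-06. No counts per library are used, so the Wald tests were used as deposited, a planned test on counts was not run, and 0 columns were left unused.

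Group means were estimated from base mean and fold change, and size factors from base means of genes with 1 read. Lengths and GC content came from GENCODE M21, for 99.0% of tested genes. The trend was removed with lowess (fraction 0.3, statsmodels 0.14.6, Python 3.11.15), and scripts were tested on simulated data. The 48 genes and all lists (G1, replication, mitosis, p53 targets and cell type markers) were chosen with earlier results of these data known. Named were all called genes of the 48, up to 4 uncalled ones of highest base mean per role, those nearest to the threshold, and up to 4 called genes per direction in each other list. In the list of other G1 regulators all called genes were named.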

Additional observations from a re-analysis of the deposited data

How the results depend on the processing

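The deposited table gave 2 genes higher and 7 lower among the 48. The same counts were obtained for genes with a base mean of at least 50. Centred on the median gene, or with no filter on low means, 6 were lower, the G1 group having 0 lower. Scaled to all reads, 0 of the 48 were higher and 35 lower (G1 0 and 4, replication 13 lower, mitosis 18 lower), and of the 153 other genes 1 was higher and 73 lower. On that scale 3.6% of all tested genes were higher and 38.7% lower. Shares of all tested genes under the other settings are given in the results above. Tested against a 1.2-fold change, 0 of the 48 were called in either direction in any role group (the deposited Wald test at an unadjusted p under 0.05 gave 3 higher and 11 lower), and of the other genes 1 was higher, Cenpm, and 0 lower. At an adjusted p under 0.01, 2 of the 48 were lower, of G1 genes 0, of replication genes 1 and of mitotic genes 1, and 5 of the other genes. After removal of the GC and length trend, 1 was higher and 3 lower (G1 1 and 0, replication 1 lower, mitosis 2 lower), and of the other genes 3 and 7. With the transcript listed first for each gene, a choice made after seeing the data, counts were 1 and 3 (G1 1 and 0, replication 1 lower, mitosis 2 lower), and 3 and 8 for the other genes.

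Values not called in the deposited table changed sign as follows, 1 of them, Tpx2 scaled to all reads, being called after the change (adjusted p = 0.0465). Scaled to all reads: Ccnd1 -0.0255, Cdk6 -0.11, Gmnn -0.11, Mki67 -0.0637, Bub1 -0.29, Cenpe -0.22, Cenpf -0.084, Kif11 -0.26 and Tpx2 -0.29. With the trend removed: Ccnd3 0.21, Cdk6 -0.10, Cdkn2c 0.13, Bub1 -0.17, Cenpe -0.17, Cenpf -0.10, Kif11 -0.13 and Tpx2 -0.0338. With the first listed transcript: Ccnd3 0.19, Mki67 -0.0199, Bub1 -0.17, Cenpe -0.19, Kif11 -0.14 and Tpx2 -0.0298. Of the 48 genes, 13 had an E2F match in a listed promoter. Of these 13 genes 8 held TTCGCGC or TTGGCGC, 5 of them replication genes, 3 mitotic genes and 0 G1 genes. The sign changes follow from the settings themselves. Scaling to all reads took the same 0.30 from every value, and the trend settings took away a value fitted from GC content and length. The source of that shift and of that trend was not tested. No paired analysis was possible because the table holds no values per library, and leaving out single libraries was not run for the same reason. Standard errors of 0.09 to 0.22 limit what could be called among the 48 genes.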
